A study of Mus musculus with 23 samples.

Results

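The cell cycle genes described here are 46 mouse genes of DNA replication and mitosis, followed in macrophages and monocytes taken from around a hydrogel implant or from tissue without one. They are the entries of the gene count table whose Ensembl identifier maps to one of 46 listed symbols. The list was drawn up with earlier results of these data known. All 46 were found among the 47729 entries of the table, and all 46 passed the low count filter that left 16260 genes for testing. By textbook role 28 were placed in a mitosis class and 18 in a replication class. RNA was sequenced from cells of the subcutaneous tissue of wild-type C57BL/6J mice, some of which had received a hydrogel of poly(ethylene glycol) (PEG) beneath the skin. A PEG hydrogel is a water-swollen synthetic polymer, and the study followed the foreign body response, the inflammation and scarring around such a material. Both cell types were Cx3cr1+, the macrophages being low and the monocytes high in Ly6C, a surface marker of inflammatory monocytes. The 23 libraries fall into 8 groups: macrophages at days 2, 14 and 28 after implantation (n = 3 each) with control macrophages from mice without an implant (n = 2), and monocytes at days 2, 14 and 28 (n = 3 each) with control monocytes (n = 3). All groups share the strain, the tissue and a digestion of tissue or hydrogel with Liberase TM, a blend of collagenases. The design note calls the replicates biological; neither the age of the mice nor any pooling of animals is given there. The controls carried no implant and no sham operation is named, so surgery and hydrogel cannot be told apart.

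A dividing cell first licenses its origins of replication by loading the Mcm2 to Mcm7 helicase with the help of Cdc6 and Cdt1, then copies its DNA with the sliding clamp Pcna and a fresh supply of deoxynucleotides, and then builds a spindle, separates its chromosomes and splits. Genes of replication are known targets of the E2F transcription factors, and genes of mitosis are known to be held down in resting cells by the DREAM complex and driven later by B-Myb and Foxm1 through promoter elements called CHR and CCAAT. Tissue macrophages are known to renew in part by dividing in place, whereas Ly6C-high monocytes come from progenitors that divide in the bone marrow.

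The promoters of the 2 classes are shown first, since these known elements are the ones by which the classes are regulated apart. Of the 46 members, 38 (23 of mitosis and 15 of replication) matched an entry of a RefSeq promoter table of build GRCm38.p6, which holds 250 bases before and 50 bases after each gene's start. Aurkb, Ccna2, Ccne2, Foxm1, Gins2, Mcm4, Stmn1 and Tpx2 were not matched. Windows were searched on both strands for a CHR (TTTGAA or TTCGAA, which reads the same on both strands), for CCAAT, and for an E2F element (TTTCCCGC, TTTGGCGC, TTTCGCGC or TTTGCCGC). A CHR was found in 19 of 23 mitosis windows (82.6%) and 3 of 15 replication windows (20.0%), against 19.4% of all 27025 promoters in the table. CCAAT was found in 87.0% of the mitosis windows, 66.7% of the replication windows and 37.9% of all promoters. A CHR together with CCAAT stood in 18 of 23 mitosis windows (78.3%), 3 of 15 replication windows (20.0%) and 7.7% of all promoters. The E2F letters showed the other order, in 1 of 23 mitosis windows (4.35%, Cdk1) and 6 of 15 replication windows (40.0%, in Cdc6, Cdt1, Mcm3, Mcm5, Mcm6 and Mcm7), against 2.32% of all promoters. A match is a description of letters, not a site shown to be bound.

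Printed below are the 200 bases before the RefSeq start of 5 mitosis genes and of 2 replication genes, on GRCm38.p6. They run 5′ to 3′ along the strand given for the gene in the table. In 32 of 38 windows, the last 30 of 50 unprinted bases after the start matched an annotated transcript of the gene in this direction. The other 6, Mcm5, Mcm6 and Hmgb2 among them, gave no such match, and their direction rests on the table alone. They were chosen because these genes return in the results: Cdc20, Top2a and Mki67 as mitosis genes low around the implant, Cdk1 as the mitosis gene with all 3 kinds of element, Hmgb2 as a mitosis gene that did not follow the others, and Mcm5 and Mcm6 as replication genes. The regions are Cdc20 chr4:118437344-118437543 (minus strand), Top2a chr11:99024190-99024389 (minus strand), Mki67 chr7:135716380-135716579 (minus strand), Hmgb2 chr8:57511643-57511842 (plus strand), Cdk1 chr10:69352913-69353112 (minus strand), Mcm5 chr8:75109309-75109508 (plus strand) and Mcm6 chr1:128359706-128359905 (minus strand). Capitals mark CHR and CCAAT in Cdc20, Top2a, Mki67 and Hmgb2, all 3 elements in Cdk1, and the E2F letters in Mcm5 and Mcm6. By the gene annotation, exons cover 26 bases of the Cdk1 window, 9 of the Cdc20 window and 0 of the others. The last CHR of Cdk1 and the last CCAAT of Cdc20 thus lie in annotated exon.
Cdc20: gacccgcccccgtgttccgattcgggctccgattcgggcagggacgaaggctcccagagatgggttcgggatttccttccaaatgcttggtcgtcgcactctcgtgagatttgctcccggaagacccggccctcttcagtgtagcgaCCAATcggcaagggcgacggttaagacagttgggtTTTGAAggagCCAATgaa
Top2a: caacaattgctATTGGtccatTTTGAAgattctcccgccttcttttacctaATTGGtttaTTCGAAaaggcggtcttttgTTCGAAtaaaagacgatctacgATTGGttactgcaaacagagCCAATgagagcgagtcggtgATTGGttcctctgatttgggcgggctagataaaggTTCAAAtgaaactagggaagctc
Mki67: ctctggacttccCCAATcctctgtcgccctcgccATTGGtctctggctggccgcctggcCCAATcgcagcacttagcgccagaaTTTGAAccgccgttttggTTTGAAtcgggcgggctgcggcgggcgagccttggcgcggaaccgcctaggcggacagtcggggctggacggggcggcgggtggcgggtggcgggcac
Hmgb2: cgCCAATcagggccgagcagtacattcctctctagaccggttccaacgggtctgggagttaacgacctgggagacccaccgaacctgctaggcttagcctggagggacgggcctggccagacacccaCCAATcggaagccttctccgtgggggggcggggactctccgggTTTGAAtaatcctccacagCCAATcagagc
Cdk1: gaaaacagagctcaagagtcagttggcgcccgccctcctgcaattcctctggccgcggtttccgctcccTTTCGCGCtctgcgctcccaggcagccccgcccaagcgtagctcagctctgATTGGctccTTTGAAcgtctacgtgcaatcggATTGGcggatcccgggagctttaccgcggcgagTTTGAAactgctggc
Mcm5: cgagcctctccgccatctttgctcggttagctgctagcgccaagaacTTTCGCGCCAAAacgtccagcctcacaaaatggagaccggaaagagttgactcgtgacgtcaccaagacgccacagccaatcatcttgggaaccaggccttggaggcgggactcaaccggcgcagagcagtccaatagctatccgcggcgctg
Mcm6: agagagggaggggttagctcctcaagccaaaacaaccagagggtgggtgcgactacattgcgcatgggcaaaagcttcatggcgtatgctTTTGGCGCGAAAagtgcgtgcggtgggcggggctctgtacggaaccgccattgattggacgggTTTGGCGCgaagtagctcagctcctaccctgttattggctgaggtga
The CHR of Cdc20 and the 2 CHRs of Mki67 stand alone near CCAAT boxes, whereas Top2a carries CHR and CCAAT letters along most of the window. Hmgb2 carries the same letters as the other mitosis genes, and its transcript did not follow theirs in these libraries. Cenpa and Aurka, not printed, carry a CHR and CCAAT too and did not follow the others either, as given below.

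Library totals ran from 9303153 to 32994092 counts (median 24722229), and 3 counts in a library correspond to 0.0654 to 0.362 CPM (counts scaled by library size, with TMM factors). Macrophage genes (Csf1r, Adgre1, Cd68, Mertk, Fcgr1 and C1qa) summed to 5388 to 7869 CPM in macrophages and 2960 to 6915 CPM in monocytes, so the ranges overlapped. Against control monocytes, 4 of these 6 were called higher in control macrophages. Between cell types with an implant, 1, 2 and 1 were higher in macrophages at days 2, 14 and 28, and 1 lower at day 14. In implant monocytes 5, 4 and 4 of the 6 were called higher than in control monocytes. A list of 6 monocyte genes summed to 787 to 2276 CPM in macrophages and 4332 to 8087 CPM in monocytes. Of these, 4 were lower in macrophages in controls, and 5, 3 and 3 at days 2, 14 and 28. None of these macrophage genes was at 0 in a whole group. Ly6c2, which encodes the Ly6C of the sort, lay between 5.49 and 236 CPM in the macrophage libraries and between 836 and 3586 CPM in the monocyte libraries. Other markers moved with the groups: 12 neutrophil granule and progenitor genes summed to 354 to 685 CPM in macrophages at day 2 against 3.40 to 8.63 CPM in control macrophages, with 2 and 4 of the 12 at 0. In control monocytes the same list summed to 1523 to 2447 CPM with none at 0, led by Ngp at 1108 and Ltf at 379 CPM, and the progenitor genes Elane and Flt3 averaged 43.1 and 35.5 CPM there. Fibroblast genes summed to 359 to 771 CPM in monocytes at day 14 and 230 to 516 CPM at day 28, against 2.18 to 6.37 CPM in control monocytes with 3 of 7 genes at 0. Fibroblast genes summed to 1.52 to 96.2 CPM in the implant macrophages and 169 to 176 CPM in control macrophages, and 6 dendritic cell genes to 11.3 to 112 CPM and 109 to 167 CPM. In monocytes the dendritic cell genes summed to 12.5 to 75.6 CPM with an implant, against 110 to 493 CPM in controls, and 2, 3 and 2 of the 6 were called lower at days 2, 14 and 28. At day 2, 8 T and NK cell genes summed to 23.4 to 154 CPM in macrophages, against 8.10 to 17.3 CPM in controls, and to 17.7 to 181 CPM in monocytes, against 6.58 to 11.9 CPM, with 1 and 4 of the 8 called higher. Mitochondrial genes held 1.86% to 4.35% of counts in macrophages at day 2, 0.985% to 1.76% at day 14 and 2.14% to 2.71% at day 28, against 0.746% to 1.25% in controls. In monocytes they held 1.18% to 2.88%, 1.28% to 1.53% and 0.609% to 0.997%, against 0.511% to 0.709%. Longer genes had lower values in some libraries: the slope of a library's log2 CPM on log2 exon length was negative in all day 2 libraries (-0.148 to -0.0367) and in monocytes at day 14 (-0.163 to -0.0424), and positive in all controls (0.018 to 0.209). The median exon length was 4513 bases for mitosis members, 4045 for replication members and 3691 for the genes tested. The part of these markers, of the mitochondrial share and of length in the results below was not tested, other than by a covariate for the length trend that was added after the data were seen.

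Across the 8 groups, the cell cycle genes were highest in control macrophages. The highest group mean lay in control macrophages for 40 of the 46 members (24 of mitosis and 16 of replication) and in control monocytes for 1, Racgap1. An implant group held it for the other 5: Cdt1 in macrophages at day 14, Pcna, Cenpa and Hmgb2 in monocytes at day 14, and Aurka in monocytes at day 2. For 27 members (22 of mitosis and 5 of replication) both control macrophage libraries stood above all 21 other libraries, a pattern shown by 5.82% of all genes tested. A gene is called here when its adjusted p (edgeR's quasi-likelihood F test, Benjamini-Hochberg over all 16260 genes) was under 0.05. By a test of any difference among the 8 groups, 37 members were called (24 of 28 mitosis and 13 of 18 replication genes), against 44.8% of all genes. The 9 not called were Aurka, Bub1, Prc1 and Ect2 of mitosis and Mcm4, Cdc6, Cdc45, Ccne1 and Ccne2 of replication.

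**Figure D1:**
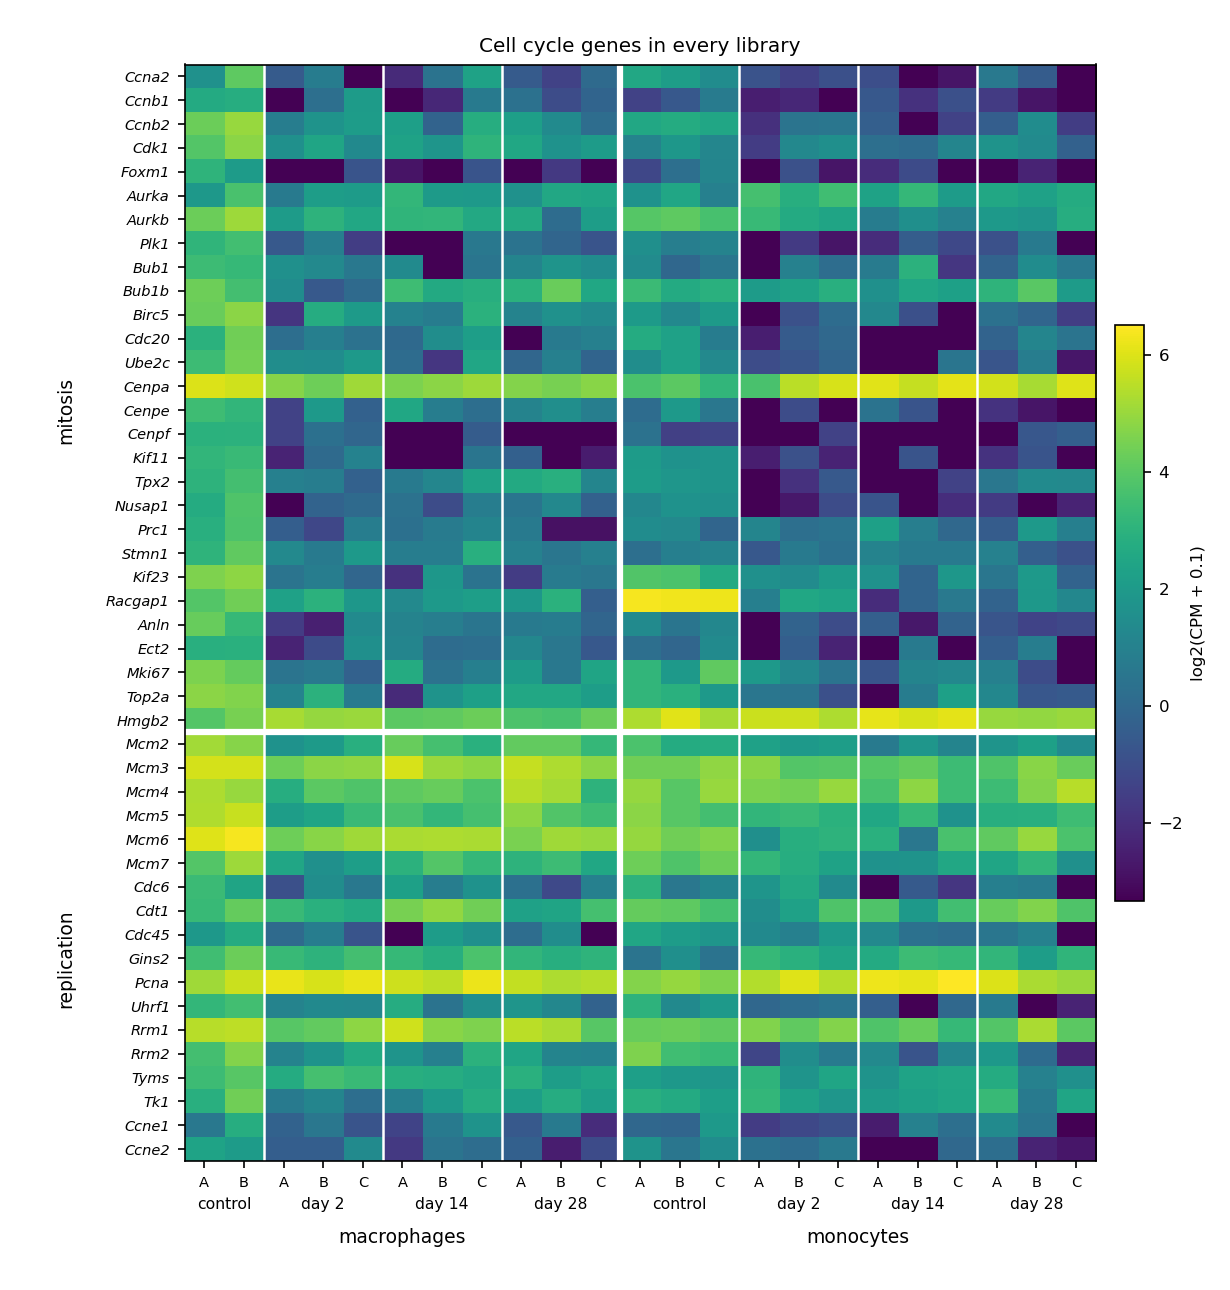
Level of each of the 46 genes (rows, mitosis above replication) in each of the 23 libraries (columns, by cell type and time, letters name replicates), as log2 of CPM plus 0.1. The 2 control macrophage columns are the brightest for most mitosis rows, while Cenpa, Hmgb2 and Pcna stay bright in monocytes with an implant.

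In macrophages at day 2, 18 of the 46 genes changed against control macrophages, 17 of them lower. The genes that fell included subunits of the helicase, the thymidine kinase gene Tk1, mitotic kinases and genes of the spindle and of cytokinesis, and Kif23 and Mki67 fell the furthest of the named ones. Called lower were 12 of 28 mitosis and 5 of 18 replication genes (37.0% of the 46, against 7.1% of all genes), and 1 mitosis gene was called higher (2.17%, against 10.1%). The median log2 fold change was -2.79 for mitosis and -2.05 for replication genes, and -0.16 for all genes tested, a shift that the following values include. At an unadjusted p under 0.05, 31 members differed. The share of all genes at that cut is not given, here or below, so such counts have no background to be read against.

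Among the 10 genes of origin licensing and the helicase, 4 were called at day 2, all lower, with a median log2 fold change of -1.90. Mcm5, a helicase subunit, had 4.36, 5.39 and 10.03 CPM at day 2, against 40.7 and 52.1 CPM in controls. Its groups lay far apart (log2 fold change -2.83 ± 0.49 SE, adjusted p = 0.0005). Mcm2, another subunit, had 3.13, 4.03 and 7.37 CPM, against 35.5 and 26.3 CPM (-2.69 ± 0.49, adjusted p = 0.00076). Mcm3 and Mcm7 were called as well. Of the 4 genes of nucleotide supply, the thymidine kinase gene Tk1 fell, with 1.56, 2.10 and 1.09 CPM against 7.32 and 21 CPM (-3.14 ± 0.67, adjusted p = 0.003). Rrm2, the small subunit of ribonucleotide reductase, did not pass (2.04, 3.21 and 6.40 CPM at day 2, 11.8 and 25.4 CPM in controls, adjusted p = 0.11). The sliding clamp gene Pcna was at 73.0, 60.7 and 73.1 CPM at day 2 and at 34.0 and 52.8 CPM in controls, above both controls in each library without being called (0.67 ± 0.31, adjusted p = 0.14). Neither the maintenance methylation factor Uhrf1 nor the E cyclins Ccne1 and Ccne2 were called.

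Of the mitosis genes, the cyclin and kinase core (Ccna2, Ccnb1, Ccnb2, Cdk1 and Foxm1) had a median log2 fold change of -3.07 at day 2, with 2 of 5 called. Cdk1, the kinase that drives entry into mitosis, had 2.98, 5.39 and 2.42 CPM, against 14.7 and 28.1 CPM in controls (-2.56 ± 0.72, adjusted p = 0.019). Its partner Ccnb2 averaged 3.05 CPM at day 2 and 25.4 CPM in controls (adjusted p = 0.039), and Ccnb1, its other B cyclin, did not pass (0, 1.11 and 4.11 CPM at day 2, 6.40 and 6.95 CPM in controls, adjusted p = 0.38). Among the 6 kinases and passenger proteins, the spindle checkpoint kinase gene Bub1b fell to 2.65, 0.576 and 0.966 CPM, against 20.1 and 11.8 CPM (-3.49 ± 0.65, adjusted p = 0.00095). Aurkb, the kinase of the chromosomal passenger complex, fell to 4.07, 8.03 and 5.92 CPM, against 19.9 and 33.6 CPM (-2.15 ± 0.53, adjusted p = 0.0084). Birc5, the survivin subunit of that complex, was at 0.189, 6.71 and 3.99 CPM at day 2 and at 19.3 and 27.8 CPM in controls, apart from them and not called (adjusted p = 0.13).

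Further along in mitosis, Cdc20, the activator of the anaphase-promoting complex, had 1.09, 1.81 and 1.21 CPM at day 2, against 7.64 and 21 CPM in controls (-3.38 ± 1.10, adjusted p = 0.042). Of the 5 spindle and microtubule genes 4 were called lower, among them Nusap1 (adjusted p = 0.035) and the microtubule destabilizer Stmn1 (adjusted p = 0.03), with Tpx2 and Prc1. In the cytokinesis group, Kif23, a motor of the central spindle, had 1.28, 1.69 and 0.846 CPM, against 24.5 and 28.3 CPM, the groups standing 20.3-fold apart (-4.34 ± 0.92, adjusted p = 0.0028). Anln, the ring scaffold anillin, averaged 0.952 CPM at day 2 and 14.1 CPM in controls (-4.00 ± 1.14, adjusted p = 0.021). Mki67, whose protein coats mitotic chromosomes and serves as a marker of dividing cells, had 1.28, 1.48 and 0.725 CPM, against 23.8 and 18 CPM (-4.13 ± 1.05, adjusted p = 0.01). Top2a, the topoisomerase that untangles sister chromatids, was low in all 3 libraries (2.04, 7.82 and 1.57 CPM, with 27.6 and 24.9 CPM in controls) and was not called (adjusted p = 0.093). Hmgb2, a chromatin protein, was the exception and rose to 37.3, 31.1 and 32.7 CPM, against 14.6 and 22.5 CPM (0.86 ± 0.30, adjusted p = 0.049).

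Without any 1 of the 5 libraries, 8 to 12 members were called at day 2 (8 without control A, control B or day 2 A, 9 without day 2 B), and Mcm2, Mcm5, Bub1b and Kif23 were called in each of these fits. Calls ended for Ccnb2, Cdc20 and Nusap1 without each of the 5 (adjusted p 0.065 to 0.24), for Tk1 and Aurkb without control B (0.063 and 0.088), for Cdk1 without control B, day 2 A or day 2 C (0.075 to 0.14), for Stmn1 without any but day 2 C (0.052 to 0.21), for Anln without control A, day 2 A or day 2 B (0.062 to 0.14), for Mki67 without control A (0.059), and for Hmgb2 without any but control B (0.067 to 0.42). With the length covariate 7 members were called, Kif23 and Mcm5 among them, and Hmgb2 came to 0.03 (adjusted p = 0.98). In these bulk libraries, fewer dividing cells and less RNA per cell cannot be told apart.

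At day 14 the levels in macrophages were still low, and fewer genes passed the test. Called lower were 2 mitosis genes and 1 replication gene (6.52% of the 46, against 2.7% of all genes), and 0 members were called higher, against 5.51% of all genes. The medians were -2.64 for mitosis, -1.15 for replication and -0.08 for all genes, and 26 members differed at an unadjusted p under 0.05. Kif23 had 0.167, 3.57 and 1.26 CPM, against 24.5 and 28.3 CPM in controls (-3.98 ± 0.90, adjusted p = 0.0072). Mcm5 had 12.7, 8.93 and 12.1 CPM, against 40.7 and 52.1 CPM (-2.05 ± 0.48, adjusted p = 0.0093). Aurkb fell to 8.45, 8.69 and 6.01 CPM, against 19.9 and 33.6 CPM (-1.79 ± 0.53, adjusted p = 0.038). The genes named for comparison that did not pass had log2 fold changes of -3.60 for Ccnb1, -3.29 for Top2a, -2.73 for Mki67, -2.65 for Birc5, -2.11 for Rrm2 and -1.93 for Cdk1, and Pcna stood at 0.42. No member was called higher by DESeq2 or limma voom with quality weights either. Without single libraries, 1 to 6 members were called: the call of Mcm5 ended without control B (adjusted p = 0.085), that of Aurkb without any of the 5 libraries (0.075 to 0.26), and Kif23 was called each time. The count was 2 without control A, 1 without control B and 6 without day 14 C, and DESeq2 called 15 members. Shares of all genes are given for the main edgeR fit only, here and below.

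At day 28, 9 genes were called lower in macrophages, 8 of mitosis and 1 of replication (19.6% of the 46, against 3.99% of all genes), and 0 higher by edgeR, DESeq2 or limma voom, against 6.57% of all genes by edgeR. The medians were -2.86 for mitosis, -1.34 for replication and -0.04 for all genes, and 29 members differed at an unadjusted p under 0.05. Aurkb was at its lowest in macrophages, with 6.10, 1.02 and 4.41 CPM, against 19.9 and 33.6 CPM in controls (-2.80 ± 0.54, adjusted p = 0.0016). Kif23 had 0.237, 1.59 and 1.38 CPM, against 24.5 and 28.3 CPM (-4.61 ± 0.92, adjusted p = 0.0023). Cenpf, a kinetochore protein gene, had 0 counts in all 3 libraries, against 379 counts (7.64 and 7.85 CPM) in the 2 controls (adjusted p = 0.0092). Stmn1 had 1.89, 1.34 and 1.82 CPM, against 8.29 and 17.0 CPM (-2.91 ± 0.72, adjusted p = 0.012). Prc1, which bundles central spindle microtubules, was called (-4.29 ± 1.18, adjusted p = 0.022), with Ccnb2, Cdk1 and Cdc20 (log2 fold changes of -3.23, -2.29 and -3.67, adjusted p 0.04 to 0.044). Of the replication genes the helicase gene Mcm7 was called (8.0, 10.6 and 5.64 CPM, against 14.6 and 33.5 CPM, adjusted p = 0.038). Not called were Mcm5 (-1.37), Rrm2 (-2.56), Ccnb1 (-3.08), Birc5 (-3.22), Mki67 (-2.53) and Top2a (-2.28), and Pcna differed by 0.00 ± 0.30 on the log2 scale. Without single libraries 3 to 7 members were called (3 without control B, 5 without day 28 C, 6 without control A or day 28 B), and Aurkb, Cenpf and Kif23 were called each time. The calls of Ccnb2 and Cdk1 ended without each of the 5 (adjusted p 0.054 to 0.32), that of Cdc20 without any but day 28 C (0.058 to 0.28), and those of Mcm7, Prc1 and Stmn1 without control B (0.49, 0.13 and 0.15), as did Mcm7 without day 28 A or C (0.094 and 0.096), Prc1 without day 28 B or C (0.073 and 0.053) and Stmn1 without day 28 B (0.051).

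In monocytes at day 2, 10 members fell and 4 rose against control monocytes. The falling genes were led by Racgap1, and the rising ones were Cenpa, Aurka, Gins2 and Pcna. Called lower were 7 mitosis and 3 replication genes (21.7% of the 46, against 11.5% of all genes), and called higher 2 of each (8.7%, against 15.5%). The median log2 fold change was -2.50 for mitosis, -0.83 for replication and 0.00 for all genes, and 26 members differed at an unadjusted p under 0.05.

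Racgap1, which pairs with Kif23 in the centralspindlin complex of the dividing cell's midzone, had 1.81, 5.78 and 5.11 CPM at day 2, against 83.2, 79.2 and 76.6 CPM in control monocytes. The groups stood 18.7-fold apart (-4.22 ± 0.74, adjusted p = 0.00035). The helicase gene Mcm6 fell to 2.91, 7.12 and 8.02 CPM, against 30.6, 20.5 and 24.9 CPM (-2.07 ± 0.52, adjusted p = 0.0064). Rrm2 fell to 0.315, 2.72 and 1.58 CPM, against 24.5, 11.2 and 9.85 CPM (-3.28 ± 0.95, adjusted p = 0.015). Tpx2, a spindle assembly factor, had 0, 0.167 and 0.573 CPM, against 4.23, 3.53 and 3.34 CPM (-3.79 ± 0.95, adjusted p = 0.0063). Among other mitosis genes, Nusap1, Cenpe, Plk1, Cdc20 and Ccnb2 were called lower with adjusted p 0.025 to 0.044, Cenpe coding for a kinetochore motor and Plk1 for a mitotic kinase. Mcm7 was called lower as well.

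The 4 genes called higher were Gins2, Cenpa, Pcna and Aurka. Gins2, a subunit of the helicase cofactor GINS, had 9.60, 7.45 and 5.21 CPM at day 2, against 1.26, 2.89 and 1.23 CPM in controls (2.04 ± 0.42, adjusted p = 0.0014). Cenpa, the histone variant that marks centromeres, had 12.7, 44.8 and 59.8 CPM, against 13.1, 16.1 and 8.69 CPM (1.63 ± 0.39, adjusted p = 0.0046), and the lowest day 2 library lay within the controls. Pcna had 42, 66.0 and 42.6 CPM, against 25.9, 30.7 and 24.0 CPM (0.90 ± 0.27, adjusted p = 0.019). Aurka, the centrosomal Aurora kinase, had 12.1, 7.06 and 11.3 CPM, against 3.14, 5.60 and 1.85 CPM (1.53 ± 0.55, adjusted p = 0.046). Mki67 (-2.05), Top2a (-2.74), Birc5 (-2.76), Ccnb1 (-3.64), Mcm5 (-1.06) and Cdk1 (-0.49) were not called. Without single libraries, 7 to 11 members were called (7 without control A, control C, day 2 A or day 2 B, and 9 without day 2 C), and Mcm6, Gins2, Cenpa, Tpx2 and Racgap1 were called each time. The calls of Ccnb2 (all 6 libraries, adjusted p 0.066 to 0.15), Aurka (all but control B, 0.052 to 0.21), Plk1 (all but control B, 0.057 to 0.13) and Cdc20 (all but control C, 0.056 to 0.14) ended most often. Those of Cenpe ended without control B or C or day 2 A or C (0.055 to 0.12), of Pcna without control A or C or day 2 B (0.09 to 0.12), of Nusap1 without control C or day 2 A or B (0.052 to 0.094) and of Rrm2 without control A or day 2 A (0.056 and 0.063). With the length covariate 4 members were called, and Gins2, Pcna and Cenpa were not (adjusted p 0.11, 0.74 and 0.12).

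In monocytes at day 14, 17 cell cycle genes were lower and 3 higher than in control monocytes. Called lower were 10 mitosis and 7 replication genes (37.0% of the 46, against 17.9% of all genes), and called higher 1 mitosis and 2 replication genes (6.52%, against 19.8%). The medians were -2.08 for mitosis, -1.18 for replication and -0.03 for all genes, and 23 members differed at an unadjusted p under 0.05. Racgap1 had 0.138, 0.809 and 1.49 CPM, against 83.2, 79.2 and 76.6 CPM in controls, 94.6-fold apart (-6.56 ± 0.84, adjusted p = 7.1e-06). Cdc20 had 0 counts in all 3 libraries, against 553 counts in controls (6.58, 4.83 and 1.63 CPM, adjusted p = 0.0004). Cenpf also had 0 counts, against 78 counts (adjusted p = 0.033). Aurkb fell to 1.66, 2.86 and 1.92 CPM, against 15.1, 16.6 and 12.5 CPM (-2.77 ± 0.51, adjusted p = 0.00034). Tpx2 had 0, 0 and 0.288 CPM, against 4.23, 3.53 and 3.34 CPM (adjusted p = 0.00086). Ccnb2 had 0.692, 0 and 0.288 CPM, against 5.84, 6.48 and 5.59 CPM (-4.22 ± 1.06, adjusted p = 0.004), and Ccna2, the A cyclin of S and G2 phase, was called with it (adjusted p = 0.016). Mki67 had 0.485, 2.05 and 2.31 CPM, against 8.87, 3.85 and 17.2 CPM (-2.61 ± 0.94, adjusted p = 0.034), and Kif23 and Nusap1 were called lower at adjusted p 0.039 and 0.027.

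Of the replication genes at day 14, Mcm7 fell to 3.12, 3.24 and 5.87 CPM, against 20.4, 13.8 and 19.5 CPM (-2.13 ± 0.45, adjusted p = 0.0011). Mcm5 (-1.58 ± 0.44, adjusted p = 0.0087), Rrm2 (-3.17 ± 0.94, adjusted p = 0.012) and Uhrf1 (-3.15 ± 1.14, adjusted p = 0.035) were called, with Mcm2, Mcm6 and Cdc6, a loader of the helicase. Pcna rose to 76.9, 70.5 and 91.3 CPM, against 25.9, 30.7 and 24.0 CPM, with no overlap between the groups (1.57 ± 0.28, adjusted p = 0.00021). Gins2 rose to 6.30, 10.6 and 9.47 CPM, against 1.26, 2.89 and 1.23 CPM (2.29 ± 0.42, adjusted p = 0.00034). Cenpa, of mitosis, rose to 67.6, 49.7 and 68.5 CPM, against 13.1, 16.1 and 8.69 CPM (2.29 ± 0.40, adjusted p = 0.00019). Top2a (-1.65), Birc5 (-1.96), Ccnb1 (-1.09) and Cdk1 (-0.88) did not pass. Without single libraries 15 to 20 members were called, and Mcm7, Gins2, Pcna, Rrm2, Ccnb2, Aurkb, Cdc20, Cenpa, Tpx2 and Racgap1 each time. Calls ended for Mcm5 without control A (adjusted p = 0.058), Uhrf1 without control A or day 14 A or B (0.065 to 0.11), Ccna2 without day 14 B or C (0.056 and 0.061), Cenpf without control A or any day 14 library (0.071 to 0.089), Nusap1 without control C or day 14 B or C (0.0503 to 0.079), Kif23 without control A or B or day 14 A or B (0.062 to 0.13), and Mki67 without control C or any day 14 library (0.051 to 0.13). With the length covariate 9 members were called, Racgap1 and Cenpa among them, and Gins2 and Pcna were not (adjusted p 0.064 and 0.097).

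At day 28, 9 members were lower and 2 higher in monocytes than in controls. Called lower were 6 mitosis and 3 replication genes (19.6% of the 46, against 6.52% of all genes), and called higher 1 of each (4.35%, against 11.7%). The medians were -1.93 for mitosis, -0.40 for replication and 0.00 for all genes, and 20 members differed at an unadjusted p under 0.05. Racgap1 had 0.787, 3.66 and 2.26 CPM, against 83.2, 79.2 and 76.6 CPM (-5.15 ± 0.78, adjusted p = 6.6e-05). Mki67 had 1.85, 0.390 and 0 CPM, against 8.87, 3.85 and 17.2 CPM (-3.75 ± 1.00, adjusted p = 0.012). Rrm2 had 3.71, 0.976 and 0.0984 CPM, against 24.5, 11.2 and 9.85 CPM (-3.26 ± 0.94, adjusted p = 0.02). Mcm7 (adjusted p = 0.013), Mcm2, Nusap1 (0.021), Aurkb (0.022), Cenpe (0.026) and Kif23 (0.037) were also lower. Gins2 (8.71, 4.39 and 8.66 CPM, adjusted p = 0.0018) and Cenpa (57.1, 37.5 and 64.8 CPM, adjusted p = 0.00082) stood above every control library. Pcna (0.74), Mcm5 (-1.12), Top2a (-2.59), Birc5 (-2.20), Ccnb1 (-3.13) and Cdk1 (-0.25) were not called. Without single libraries 6 to 10 members were called (6 without day 28 C, 7 without control A or day 28 B), Gins2, Cenpa and Racgap1 each time. Calls ended for Mcm7 without day 28 C (adjusted p = 0.069), Rrm2 without control A or day 28 B or C (0.059 to 0.078), Aurkb without control A or B or day 28 A or B (0.052 to 0.086), Cenpe without control B or day 28 B or C (0.073 to 0.089), Nusap1 without day 28 B or C (0.072 and 0.066), Kif23 without control A or B or day 28 A or C (0.07 to 0.13), and Mki67 without control C or day 28 B (0.055 and 0.054).

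Beside these results in monocytes, the summed neutrophil granule and progenitor genes were at 302 to 592 CPM at day 2, 12.8 to 59.5 CPM at day 14 and 13.5 to 31.4 CPM at day 28, against 1523 to 2447 CPM in controls. The markers Elane and Mpo of early granulocyte and monocyte progenitors averaged at most 2.08 CPM in any implant group, against 43.1 and 34.5 CPM in control monocytes. Of the 12 genes on that list, 6, 8 and 8 were called lower in monocytes at days 2, 14 and 28 and 3, 1 and 0 higher. Those higher were Retnlg (208 CPM at day 2 and 6.43 CPM at day 14, against 0.911 CPM), and at day 2 Cxcr2 (38.5 against 1.10 CPM) and Ly6g (6.21 against 1.00 CPM). Whether progenitors in the control sort gave part of the control levels of Racgap1 or of other cell cycle genes was not tested.

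Over the 6 comparisons of implant with control, which share 1 set of controls per cell type, 26 members were called lower at least once (17 of mitosis and 9 of replication), 56.5% of the 46, against 24.8% of all genes tested. At least once higher were 5 (Aurka, Cenpa and Hmgb2 of mitosis, Gins2 and Pcna of replication), 10.9% against 25.4%, and 15 were called in neither direction (8 and 7), 32.6% against 51.5%. Kif23, Aurkb and Mcm7 were called lower in 5 of the 6, and Ccnb2, Cdc20 and Nusap1 in 4. The fold change was negative in all 6 for 32 members (21 of mitosis and 11 of replication), 69.6% against 21.2% of all genes. In both cell types 11 members were called lower, 23.9% against 4.68%.

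**Figure D2:**
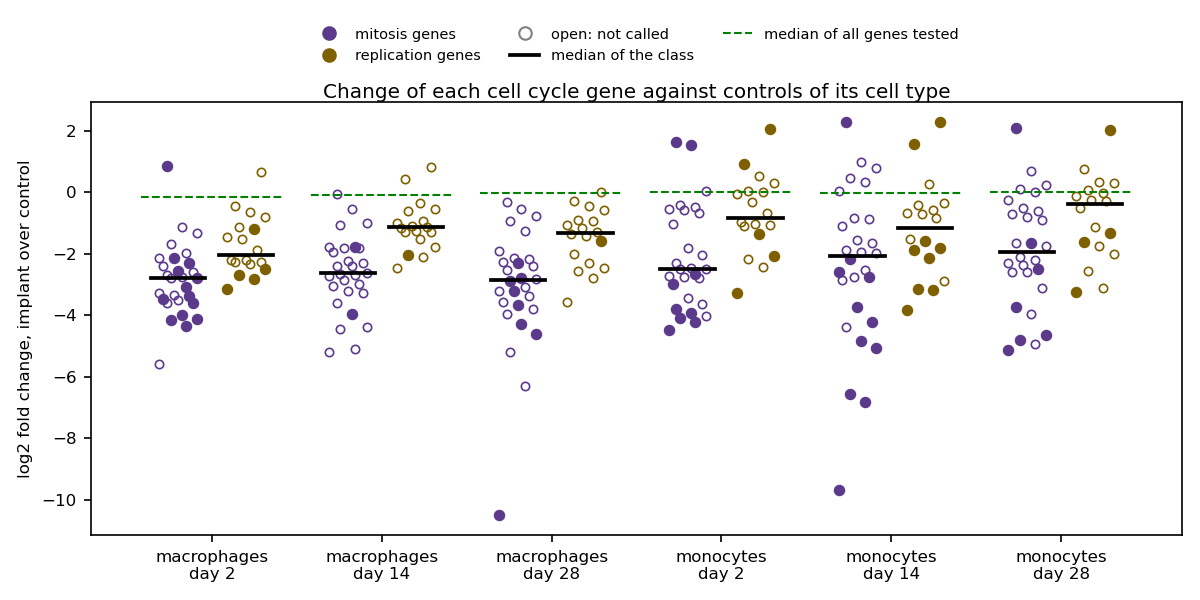
Log2 fold change of each of the 46 genes with implant over control, by cell type and day, with mitosis genes left and replication genes right, filled where called by edgeR. Black bars are class medians and dashed lines the median of all genes tested, and the mitosis median lies below the replication median in all 6 comparisons. The lowest filled points (Cenpf in macrophages at day 28 and in monocytes at day 14, and Cdc20 in monocytes at day 14) had 0 counts with implant, so their height depends on the prior count.

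With an implant, the mitosis genes lay further below their controls than the replication genes did. Taking for each library the mean log2 CPM of a class, control macrophages stood at 3.54 and 3.95 for mitosis and at 3.90 and 4.39 for replication. In implant macrophages the mitosis mean was 0.50 ± 0.64 at day 2, 0.53 ± 0.98 at day 14 and 0.49 ± 0.19 at day 28 (SD, n = 3 each), against 3.75 in controls. The replication mean was 2.41 ± 0.27, 2.90 ± 0.30 and 2.49 ± 0.51, against 4.14 in controls. In each class the means of the 3 days lay closer to each other than to the controls.

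In monocytes the mitosis mean was -0.62 ± 0.99 at day 2, -0.97 ± 0.06 at day 14 and -0.33 ± 0.87 at day 28, against 1.90 ± 0.09 in controls. The replication mean was 2.33 ± 0.10, 1.56 ± 0.40 and 1.76 ± 0.95, against 3.03 ± 0.29. The change of the mitosis mean exceeded that of the replication mean by -1.51, -1.98 and -1.61 in macrophages at days 2, 14 and 28 and by -1.82, -1.40 and -0.97 in monocytes, and libraries of 1 group differed with a pooled SD of 0.543 (15 degrees of freedom). These differences are a description without a test, since the classes are lists of genes and low genes weigh more on a log scale. The mitosis members also had the longer median exon length, and the differences were not computed with the length covariate. With summed CPM in place of mean logs they came to -0.84 and -1.27 in macrophages at days 2 and 14 and to -0.60 and -0.27 in monocytes at days 2 and 14. At day 28 summed CPM moved them by less than the pooled SD. Without 1 library they ran from -1.64 to -1.29 and from -2.40 to -1.63 in macrophages at days 2 and 14. In monocytes they ran from -2.17 to -1.31 and from -1.54 to -1.15 at these days. In a library with an implant 0 to 11 members had 0 counts, whereas every member had counts in all 5 control libraries.

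**Figure D3:**
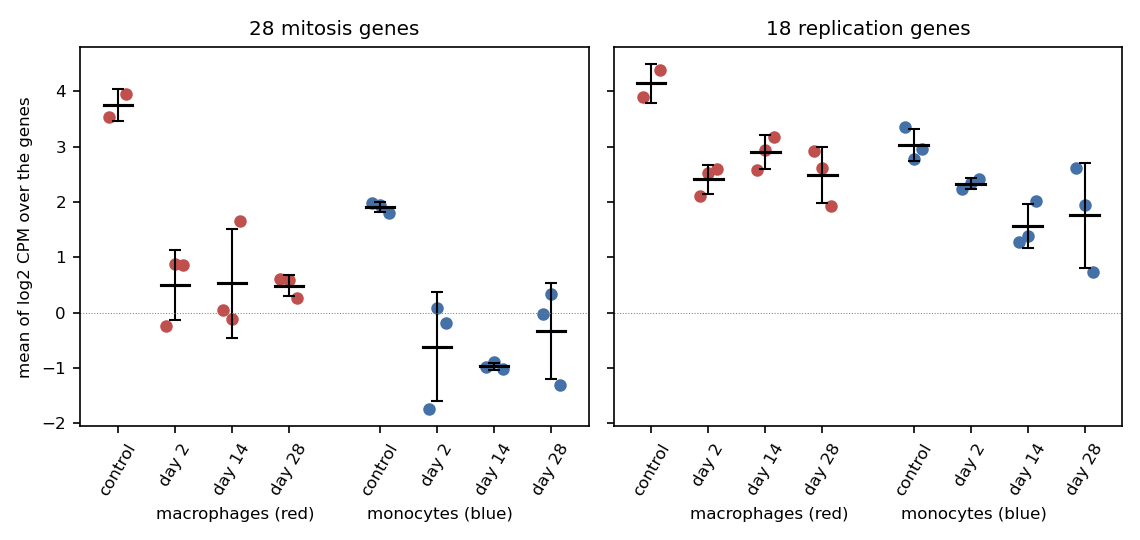
Mean log2 CPM of the 28 mitosis genes (left) and the 18 replication genes (right) in each library, by time in macrophages (red) and monocytes (blue), with group means as lines and SD as error bars. The control libraries of each cell type lie above all its implant libraries for the mitosis genes, and the distance is smaller for the replication genes.

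The summed level of the 28 mitosis genes hid the exceptions. In implant macrophages it averaged 115, 117 and 104 CPM at days 2, 14 and 28, against 456 CPM in controls, and in implant monocytes 132, 162 and 127 CPM, against 244 CPM. Cenpa and Hmgb2 together made up 54.1% to 82.4% of that sum in monocytes with an implant, against 20.9% to 31.4% in controls, and 31.2% to 63.7% in macrophages with an implant, against 15.4% to 19.5%. Without them the other 26 mitosis genes summed to 29.4 to 57.5 CPM in implant monocytes, against 170 to 197 CPM in controls, and to 36.4 to 93.3 CPM in implant macrophages, against 326 to 430 CPM. Among the replication genes, Pcna made up 17.5% to 49.5% of the sum in implant monocytes, against 9.60% to 15.8%, and 15.05% to 39.7% in implant macrophages, against 8.25% to 10.2%. These shares are within a library and do not depend on how libraries are scaled to each other.

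Pcna also acts in DNA repair and Hmgb2 in chromatin of resting cells, and whether these roles bear on their levels was not tested. Neither gene was called lower in any of the 6 comparisons with controls. In macrophages Hmgb2 was at 16.5, 17.3 and 19.8 CPM at day 14 and 13.3, 12.4 and 19.1 CPM at day 28, within or near the 14.6 and 22.5 CPM of controls. In monocytes it was at 53.2, 54.0 and 39.9 CPM at day 2, 70.1, 60.6 and 69.1 CPM at day 14 and 31.5, 30.4 and 32.6 CPM at day 28, against 39.8, 67.8 and 36.4 CPM in controls, and was called at none of these days. Cenpa went apart between the cell types: its 9 macrophage libraries with an implant had 20.5 to 34.3 CPM, all below the 64.3 and 55.4 CPM of controls without a call, while monocytes at days 14 and 28 had 37.5 to 68.5 CPM, all above their controls.

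**Figure D4:**
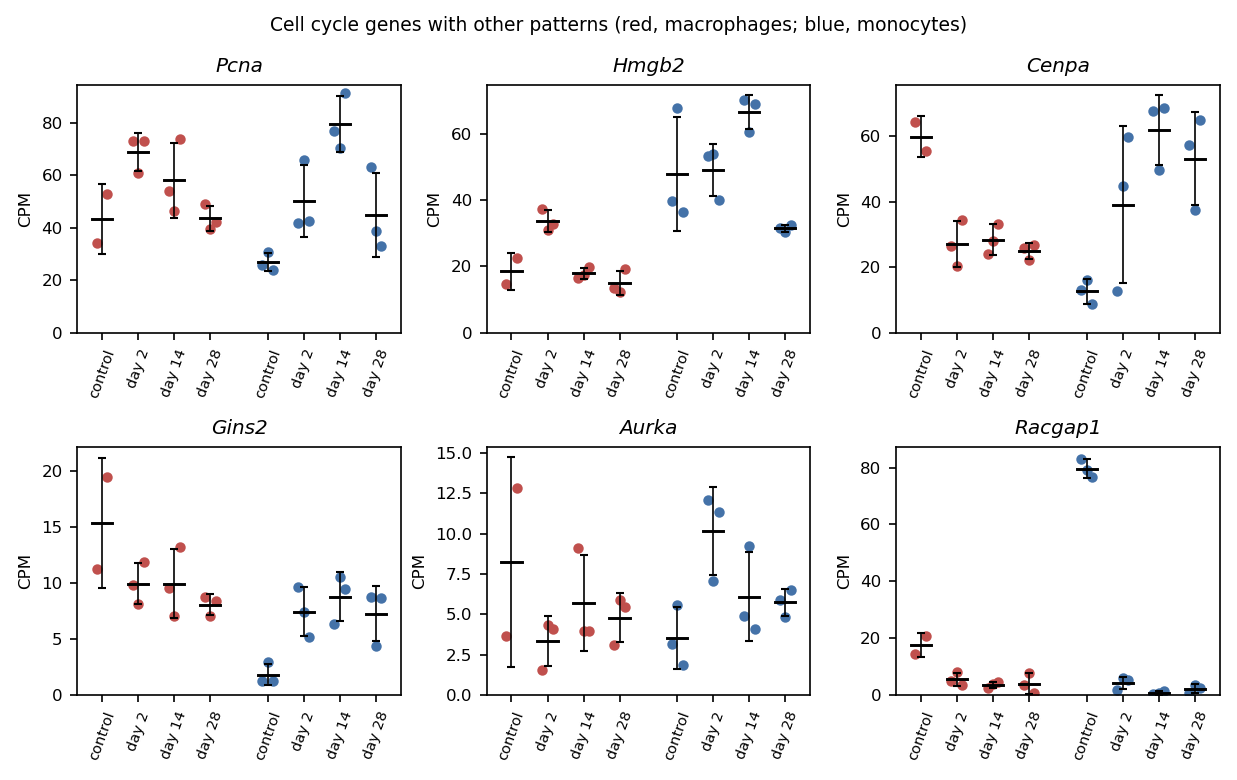
CPM by library for Pcna, Hmgb2, Cenpa, Gins2, Aurka and Racgap1, by time in macrophages (red) and monocytes (blue), with group means as lines and SD as error bars. Cenpa and Gins2 are higher with an implant than in controls in monocytes and not in macrophages, and Racgap1 is at 76.6 to 83.2 CPM in control monocytes and at 5.78 CPM or below in every monocyte library with an implant.

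Racgap1 was the member with the highest group mean in control monocytes, 79.7 ± 3.31 CPM (SD, n = 3), against 17.6 CPM in control macrophages, a difference that was not called (adjusted p = 0.078). Its partner Kif23 showed another ratio. Per kilobase of exon, Racgap1 stood at 0.0507 to 3.21 times Kif23 in monocytes with an implant and at 6.46 to 13.6 times in control monocytes. In macrophages it stood at 0.558 to 17.0 times with an implant and 0.661 to 0.816 times in controls. Extremes rest on few counts: 17.0 on 5 of Kif23 (macrophages day 28 A) and 0.0507 on 2 of Racgap1 (monocytes day 14 A).

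Levels of different genes were compared per kilobase of exon. In control macrophages the leading members by mean CPM per kilobase were Pcna (18.1), Ccnb2 (16.6), Mcm6 (15.9), Mcm3 (15.7), Mcm5 (11.6) and Cenpa (10.2), with Cenpf the lowest (0.502). In control monocytes Hmgb2 (16), Racgap1 (11.3) and Pcna (11.2) led. With an implant Pcna ranked first in all 6 groups, at 28.7, 24.2 and 18.2 CPM per kilobase in macrophages and 20.9, 33.1 and 18.7 in monocytes at days 2, 14 and 28. Hmgb2 was the next in macrophages at day 2 (11.2) and in monocytes at all 3 days (16.3, 22.2 and 10.5), and Mcm3 was the next in macrophages at days 14 and 28 (10.8 and 10.5). Ccnb2, among the leading genes of control macrophages, was not among the first 7 of any implant group.

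Control macrophages and control monocytes differed in 8 members, 7 of them higher in macrophages. Higher were 3 mitosis and 4 replication genes (15.2% of the 46, against 7.61% of all genes), and lower 1 mitosis gene (2.17%, against 4.9%). The medians were 2.13 for mitosis, 1.14 for replication and 0.04 for all genes, and 18 members differed at an unadjusted p under 0.05. Gins2 had 11.2 and 19.5 CPM in macrophages, against 1.26, 2.89 and 1.23 CPM in monocytes (3.10 ± 0.46, adjusted p = 7.5e-05). Cenpa had 64.3 and 55.4 CPM, against 13.1, 16.1 and 8.69 CPM (2.24 ± 0.43, adjusted p = 0.001). Cdk1 (3.05 ± 0.73, adjusted p = 0.0074), Stmn1 (2.94 ± 0.72, adjusted p = 0.0086), Mcm2 (1.82 ± 0.47, adjusted p = 0.014) and the thymidylate synthase gene Tyms (1.73 ± 0.49, adjusted p = 0.022) were higher, with Mcm3. Hmgb2 was lower, with 14.6 and 22.5 CPM in macrophages against 39.8, 67.8 and 36.4 CPM in monocytes (-1.37 ± 0.30, adjusted p = 0.0036). Mki67 (1.06), Top2a (1.96), Birc5 (2.77), Ccnb1 (3.02), Mcm5 (1.33), Pcna (0.69) and Rrm2 (0.29) were not called. Without single libraries 4 to 8 members were called (5 without macrophage A, 4 without macrophage B, 5 without monocyte B), Gins2 and Cenpa each time; calls ended for Mcm2 without macrophage A or monocyte B or C (adjusted p 0.065 to 0.12), Tyms without macrophage B or monocyte B or C (0.067 to 0.2), Cdk1 and Stmn1 without macrophage B (0.096 and 0.12) and Hmgb2 without macrophage A (0.081).

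With an implant the cell types differed in fewer members at days 2 and 28 than at day 14. At day 2, 1 replication gene was higher in macrophages (2.17% of the 46, against 1.64% of all genes) and 0 were lower, against 1.78%, with 9 members at an unadjusted p under 0.05. DESeq2 called 4 higher and 2 lower, and limma voom 3 and 1. The gene called by edgeR was Mcm6, with 20.2, 27.2 and 34.2 CPM in macrophages, against 2.91, 7.12 and 8.02 CPM in monocytes (2.17 ± 0.52, adjusted p = 0.023), and its call ended without any of the 6 libraries but macrophage A (0.053 to 0.11). At day 14, 7 members were higher in macrophages (15.2%, against 5.34%) and 1 lower (2.17%, against 4.02%). Mcm6 had 38.8, 39.0 and 37.9 CPM, against 7.41, 1.4 and 12.9 CPM (2.41 ± 0.53, adjusted p = 0.0081), and Mcm2 18.7, 12.3 and 7.45 CPM, against 1.52, 3.50 and 2.07 CPM (2.43 ± 0.46, adjusted p = 0.0037). Tpx2 had 1.51, 2.17 and 4.93 CPM, against 0, 0 and 0.288 CPM (adjusted p = 0.0087), and Cdc20 192 counts in macrophages, against 0 in monocytes (adjusted p = 0.0055). Ccnb2 (adjusted p = 0.032), Aurkb (0.026) and Mcm3 were also higher, and Hmgb2 was lower (17.9 ± 1.71 against 66.6 ± 5.23 CPM, adjusted p = 0.00031). Without single libraries 5 to 8 members were called at day 14: the calls of Ccnb2 ended without macrophage A or C or monocyte B or C (0.063 to 0.1) and of Aurkb without macrophage A or B or monocyte A or C (0.064 to 0.084). At day 28 Mcm2 was higher (17.7, 17.5 and 9.15 CPM, against 3.32, 4.68 and 2.56 CPM, adjusted p = 0.019) and Hmgb2 lower (13.3, 12.4 and 19.1 CPM, against 31.5, 30.4 and 32.6 CPM, adjusted p = 0.031), each 2.17% of the 46, against 1.49% and 1.03% of all genes. Both calls of day 28 ended without single libraries, Mcm2 without A or B of the macrophages or A or C of the monocytes (0.065 to 0.093) and Hmgb2 without any but macrophage C (0.056 to 0.16).

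The change with an implant was also compared between the cell types by an interaction test. It called 2 members at day 2 (4.35% of the 46, against 3.78% of all genes), 3 at day 14 (6.52%, against 7.55%) and 3 at day 28 (6.52%, against 5.77%), shares near those of all genes. At an unadjusted p under 0.05, 13, 7 and 7 members differed. Gins2 and Cenpa were called at all 3 days, Racgap1 at day 14 and Cenpf at day 28. For most cell cycle genes, then, no difference between the cell types in the response to the implant was detected at this number of libraries.

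Between implant days few members moved. In macrophages edgeR called 0 members from day 14 against day 2 (0.474% of all genes) and 0 from day 28 against day 14 (0.00615%), with 6 and 2 at an unadjusted p under 0.05 and with 2 and 0 called by DESeq2 and 4 and 1 by limma voom. In monocytes it called 0 from day 14 against day 2 (0.726% of all genes), with 5 at an unadjusted p under 0.05, 4 by DESeq2 and 1 by limma voom. From day 28 against day 14 it called 1 (0.72% of all genes): Cdc20 had 0.787, 2.10 and 1.28 CPM at day 28 (83 counts), against 0 counts at day 14 (adjusted p = 0.048), and this call ended without any 1 of 5 of the 6 libraries (0.063 to 0.17).

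Other genes that govern the cycle were followed from 7 lists. For reading their counts, the genes called higher were 10.1%, 5.51% and 6.57% of all genes tested in macrophages at days 2, 14 and 28 and 15.5%, 19.8% and 11.7% in monocytes, and those called lower 7.1%, 2.7% and 3.99% in macrophages and 11.5%, 17.9% and 6.52% in monocytes. With lists of 6 to 22 genes, 1 call is 4.55% to 16.7% of a list. Of the CDK inhibitors, the brakes on cyclin-dependent kinases, 6 of 7 were tested, and Cdkn2a had 0 counts in every library. In macrophages 3 of the 6 were higher and 1 lower at day 2, 1 higher at day 14, and 1 higher and 1 lower at day 28. In monocytes 3 were higher and 1 lower at days 2 and 14, and 1 higher at day 28. The 3 higher at day 2 were 50% of the list in each cell type, against 10.1% and 15.5% of all genes. Cdkn1a, which codes for the p53 target p21, was called higher in all 6. In macrophages it had 2506, 1380 and 1634 CPM at day 2, 1134, 1038 and 1332 CPM at day 14 and 640.0, 737 and 968 CPM at day 28, against 136 and 171 CPM in controls. In monocytes it had 2240.0, 2165 and 1724 CPM, 3972, 2387 and 4906 CPM, and 2017, 1300 and 1404 CPM at these days, against 83.9, 85.4 and 60.4 CPM. No library with an implant came near a control, and the log2 fold changes were 3.58 ± 0.36, 2.93 ± 0.35 and 2.35 ± 0.34 in macrophages and 4.74 ± 0.32, 5.62 ± 0.34 and 4.36 ± 0.32 in monocytes (adjusted p 2.9e-10 to 0.00011).

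**Figure D5:**
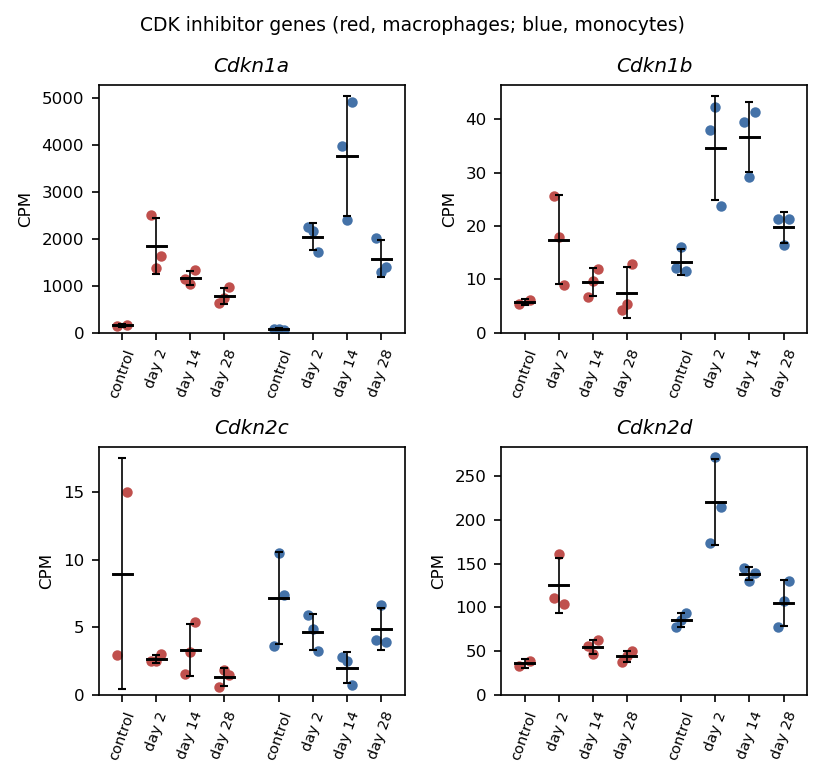
CPM by library for Cdkn1a, Cdkn1b, Cdkn2c and Cdkn2d, by time in macrophages (red) and monocytes (blue), with group means as lines and SD as error bars. Cdkn1a lies between 640.0 and 4906 CPM in the 18 libraries with an implant, and between 60.4 and 171 CPM in the 5 control libraries.

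Cdkn2d was higher in macrophages at day 2 (125 against 35.9 CPM) and in monocytes at days 2 and 14 (220.1 and 139 against 85.7 CPM), and Cdkn1b, the p27 gene, in macrophages at day 2 (17.5 against 5.81 CPM) and in monocytes at days 2 and 14 (34.7 and 36.7 against 13.3 CPM). Cdkn2c was lower in macrophages at day 28 (1.29 against 8.98 CPM) and in monocytes at day 14 (2.01 against 7.18 CPM). Cdkn1c was lower at day 2 in both cell types from about 1 CPM in controls (0.816 in macrophages and 1.13 in monocytes).

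Of 6 genes of growth restraint, Btg2, an antiproliferative gene induced by p53 and by early response signals, rose in all 6 comparisons. It averaged 707, 575 and 851 CPM in macrophages at days 2, 14 and 28, against 198 CPM in controls, and 2112, 1216 and 1501 CPM in monocytes, against 555 CPM (log2 fold changes of 1.13 to 2.10). Btg1 rose in macrophages at day 14 (428 against 63.8 CPM), Tob1 rose in monocytes at days 2 and 14, and Ccng2 fell there (29.5 and 32.9 against 91.7 CPM).

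Of the 6 G1 cyclin and kinase genes, 1 was higher in macrophages at day 2 (Cdk6, 46.8 against 18.2 CPM) and 0 were called at days 14 and 28. In monocytes 2 were higher at day 2, 3 higher and 1 lower at day 14, and 1 higher and 1 lower at day 28. Cdk4 was higher at days 2 and 14 (131 and 111 against 67.2 CPM), Ccnd2 at days 2 and 14 (14.6 and 5.89 against 1.49 CPM) and Cdk6 at days 14 and 28 (36.5 and 26.2 against 10.4 CPM). The D cyclin gene Ccnd3 was lower at days 14 and 28 (51.1 and 106 against 329 CPM). Of the 11 E2F and pocket protein genes, 2 were lower in macrophages at day 2 (E2f5 and Rbl2) and 0 called later, while in monocytes 5, 5 and 1 were lower at days 2, 14 and 28 (45.5%, 45.5% and 9.09%) and 0 higher. E2f2, an activator E2F, was at 12.0, 7.54 and 19.7 CPM in monocytes with an implant, against 71.5 CPM in controls, and Rbl2 and E2f4, subunits of the DREAM complex, at 8.42 and 12.8 CPM at day 2, against 44.4 and 45.8 CPM.

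Among 22 further replication factors, 2, 0 and 1 were lower in macrophages at days 2, 14 and 28 and 0 higher, and in monocytes 2, 7 and 1 were lower and 0, 2 and 1 higher. The share lower was 9.09%, 0% and 4.55% in macrophages and 9.09%, 31.8% and 4.55% in monocytes, so that in monocytes it lay above the share of all genes at day 14 and below it at days 2 and 28. The maintenance methyltransferase gene Dnmt1 was lower at day 2 in macrophages (16 against 43.4 CPM) and in monocytes (12.3 against 40.4 CPM). The geminin gene Gmnn, an inhibitor of origin licensing, was higher in monocytes at day 14 (22.4 against 11.3 CPM), and Gins1, a partner of Gins2, at days 14 and 28 (3.03 and 3.44 against 1.07 CPM). Among 10 checkpoint genes, 1, 0 and 0 were higher and 2, 1 and 1 lower in macrophages, and 2, 1 and 1 higher and 3, 5 and 2 lower in monocytes. Cdc25b, a phosphatase that activates Cdk1, was lower in macrophages at days 2 and 14 (11.4 and 10.3 against 36.4 CPM) and higher in monocytes at days 2, 14 and 28 (6.12, 5.82 and 9.53 against 2.06 CPM). Cdc25a, the phosphatase of the G1 to S step, was lower in monocytes at all 3 days (1.85, 0.729 and 3.18 against 9.50 CPM).

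Of 6 regulators of macrophage self-renewal, 4 were higher and 1 lower in monocytes at each of days 2, 14 and 28. Those higher were 66.7% of the list, against 15.5%, 19.8% and 11.7% of all genes. The 1 lower was 16.7%, against 11.5%, 17.9% and 6.52%. Among those higher in monocytes at each day were Maf, known to restrain division of macrophages, and Klf4 and Myc, known to permit it. Klf2 was lower there. Maf averaged 85.9, 109 and 54.0 CPM there, against 8.14 CPM in controls. In macrophages Klf4 was higher at days 2 and 14 (188 and 121 against 38.5 CPM), the growth factor receptor gene Csf1r was lower at day 2 (708 against 2367 CPM), and Maf was lower at day 28 (97.2 against 230.5 CPM).

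Some members cannot be read alone. By the annotation, 14 of the 46 share exon bases with another gene, 10 of them only with genes on the opposite strand, and the library kit did not mark strand. Gins2 shares 2758 of its 4097 exon bases with Gse1. Gse1 averaged 2.10, 2.78 and 5.06 CPM in monocytes at days 2, 14 and 28, against 5.15 CPM in controls. It was not called in any of the 6 comparisons. Prc1 shares 911 bases with Rccd1, Ccne2 609 with Ints8, Ube2c 592 with Tnnc2, Ccna2 510 with Exosc9, and Cdc20 53 with Elovl1. Mcm7 shares 321 with Ap4m1 and 64 with Cops6, Cdc45 209 with Ufd1, Nusap1 172 with Oip5, Plk1 156 with Gm44985 and Tk1 83 with Afmid. Cops6 was called higher in macrophages at day 2 and in monocytes at days 2, 14 and 28. Annotated copies named after Ccnb1, Ccnb2, Pcna, Stmn1 and Tyms exist, 6 in all, and reads that fit both a gene and its copy are uncertain. Racgap1, Kif23, Cenpa, Mki67 and Mcm5 share no exon bases with another annotated gene.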

How the data were processed

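Whole-number counts per gene were deposited by the authors for 23 libraries. Per the labels' protocols, the SMART-Seq v4 and Nextera XT kits and single 75-base reads were used. Per the submitters' processing notes, bcl2fastq, STAR 2.4.1d, GRCm38 and featureCounts of Subread 1.5.1 were used; no source used here gives the annotation release, strand setting or treatment of multiply matching reads. GENCODE M21 gave symbols to 47310 of 47729 entries, and the other 419 held 0.095% of counts.

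The tests used edgeR 4.0.16 under R 4.3.3 (filterByExpr by group, TMM, robust quasi-likelihood fit of 8 groups, F tests in 17 contrasts and over all groups, Benjamini-Hochberg over 16260 genes). The prior count was 0.125 for fold changes and 0.5 for log2 CPM; each standard error is the size of the log2 fold change divided by the root of F. Steps were tested on simulated data. P-values set a difference between groups against the spread between these libraries, estimated over all 8 groups. Some listed genes are not reported here.

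The members and lists were chosen with earlier results of these data known. Named were Mki67, Top2a, Mcm5, Pcna, Rrm2, Ccnb1, Cdk1 and Birc5 in the comparisons described, up to 2 called members per role group and up to 4 called genes per other list, by smallest adjusted p; members beyond this were named after their values were seen. Alternatives were RLE size factors, no filter, thinned counts, a replicate block, only the groups compared, a prior count of 2, limma 3.58.1 voom with quality weights, DESeq2 1.42.0 and leaving out each library; the exon length covariate was chosen after seeing the data.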

Additional observations from a re-analysis of the deposited data

Results flagged for a closer look

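The following results differed between macrophages and monocytes by a test of the difference itself, the log2 change with an implant in macrophages minus that in monocytes (edgeR, adjusted over all genes). For Gins2 it was -2.68 at day 2 (adjusted p = 0.012), -2.92 at day 14 (0.0052) and -2.94 at day 28 (0.0045): Gins2 rose in monocytes at each day and was not called in macrophages. For Cenpa it was -2.78 at day 2 (0.0063), -3.37 at day 14 (0.001) and -3.34 at day 28 (0.00098): Cenpa rose in monocytes and was below the controls in every macrophage library with an implant, without a call. For Racgap1 it was 4.26 at day 14 (0.019), where the gene was lower in monocytes and not called in macrophages. For Cenpf it was -9.99 at day 28 (0.041), a value that depends on the prior count, since macrophages at day 28 had 0 counts. Without control macrophage B the difference for Gins2 at day 2 had an adjusted p of 0.1. Without control macrophage A or B that of Racgap1 had 0.1 and 0.059, and that of Cenpf passed 0.05 without 10 of the 11 libraries (0.056 to 0.11). All of these rest on the 2 control macrophage libraries. Gins2 shares 2758 of its 4097 exon bases with Gse1 on the opposite strand, and the library kit did not mark strand. With the length covariate, Gins2 was not called in monocytes at days 2 and 14 against controls.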

How the results depend on the processing

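Of 92 named calls, each a gene in 1 comparison, the same direction and call held in 92 by DESeq2, 91 with RLE size factors, 90 by limma voom, 87 with thinned counts, 86 with no low count filter, 81 with the replicate block, 79 with only the groups compared and 60 with the exon length covariate. Over the fits without 1 library 377 held and 182 did not. Over all groups, same-lettered replicates did not deviate together (mean correlation -0.011, range -0.228 to 0.237 over 77 pairs). The closest library of another group had the same letter for 2 of 23 libraries. These pairs include different days, so they cannot tell whether macrophages and monocytes of 1 letter and day came from the same mice. No pairing was used in the main fit. With the replicate block the counts were 14, 4 and 8 in macrophages and 13, 18 and 11 in monocytes at days 2, 14 and 28 (without it 18, 3 and 9, and 14, 20 and 11), and 35 over all groups (37 without).

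Counts of called members that moved by more than 1.5 times follow. The shares of all genes called under these settings are not given, so a larger count has no background to be read against. No low count filter gave 30, 17 and 23 in macrophages at days 2, 14 and 28, 17 in monocytes at day 28, and 15, 5, 18 and 6 between the cell types in controls and at days 2, 14 and 28 (8, 1, 8 and 2 as reported). Limma voom gave 38, 28 and 28 in macrophages, 28 in monocytes at day 2, and 28, 4 and 4 between the cell types in controls and at days 2 and 28. DESeq2 gave 15 and 21 in macrophages at days 14 and 28, and 13, 6, 16 and 4 between the cell types. Only the groups compared gave 34 and 8 in macrophages at days 2 and 14, 22 in monocytes at day 2, and 22 and 0 between the cell types in controls and at day 28. Thinned counts gave 6 and 15 in macrophages at days 14 and 28. The length covariate gave 7 in macrophages and 4 in monocytes at day 2, 9 in monocytes at day 14, 3 between the cell types at day 2 and 4 for the interaction at day 2. For the interactions at days 2, 14 and 28 (2, 3 and 3), no filter gave 6, 5 and 5, limma voom 8, 9 and 5, DESeq2 5, 6 and 5, and only the groups compared 6 at day 2. Between days in macrophages (0 and 0), no filter gave 2 and 1, limma voom 4 and 1, and DESeq2 2 and only the groups compared 1 for day 14 against day 2. Between days in monocytes (0 and 1), no filter gave 4 and 5, DESeq2 4 and 5, limma voom 1 and 2, and for day 28 against day 14 RLE gave 2, thinned counts 3, the replicate block 0 and only the groups compared 0.

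Without 1 library the counts were 8 to 12, 1 to 6 and 3 to 7 in macrophages, 7 to 11, 15 to 20 and 6 to 10 in monocytes, 4 to 8, 0 to 2, 5 to 8 and 0 to 3 between the cell types, 0 to 1 for macrophages at day 14 against day 2, 0 to 3 for monocytes at day 28 against day 14, and 1 to 4 for the interaction at day 2. With summed CPM the excess of the mitosis change was -0.84 and -1.27 in macrophages at days 2 and 14 (-1.51 and -1.98 as reported) and -0.60 and -0.27 in monocytes (-1.82 and -1.40).

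Signs turned for some named genes that were not called. Pcna in macrophages at day 2 turned to -0.17 with the length covariate (0.67 as reported). Pcna in macrophages at day 28 (0.0049) turned to -0.030 with RLE, -0.045 thinned, -0.029 with only the groups compared, -0.032 by limma voom, -0.032 by DESeq2, -0.077 with the length covariate and -0.26 to 0.41 without 1 library. Pcna between the cell types at day 28 (-0.045) turned to 0.0027 by limma voom, 0.27 with the length covariate and -0.22 to 0.28 without 1 library. Ccnb1 between the cell types at day 14 (0.51) turned to -0.15 thinned, -0.10 with the replicate block, -1.66 by limma voom and -2.58 to 1.09 without 1 library. Without 1 library the ranges that cross 0 were -1.0 to 0.010 for Cdk1 in monocytes at day 2, -0.65 to 0.17 for Cdk1 in monocytes at day 28, -0.40 to 0.78 for Rrm2 between control cell types, and -0.12 to 1.34 for Mki67 and -0.36 to 1.69 for Top2a between the cell types at day 14. The cause of these moves was not tested.

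Depth limits the low genes: 3 counts correspond to up to 0.362 CPM, and many mitosis genes lay near that value with an implant. The 2 control macrophage libraries bear on every comparison of macrophages with controls.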
